A study of Homo sapiens with 4 samples.

Results

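The ABC transporter genes of PLC8024, a line grown from human liver cancer, were compared between control and drug-treated cells. A gene was a member when its symbol was ABC followed by a subfamily letter from A to G and a number, or was CFTR. This rule found 42 members among the 26603 genes of the deposited table. It matched 47 genes of the GENCODE 29 annotation, and the other 5 (ABCA9, ABCB5, ABCB11, ABCC12 and ABCG1) were not analysed here. Messenger RNA had been sequenced from 2 control and 2 drug libraries, all of the same line. The labels name no drug, dose or duration, and no treatment that the control cells received. They also do not say whether the 2 libraries of a group came from separate cultures, so a p-value here reflects no more than the spread among 4 libraries, which may be technical. Levels are FPKM (fragments per kilobase of transcript, scaled to the reads mapped in the library), a scale on which genes of different length can be compared.

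ABC proteins couple the hydrolysis of ATP to movement, and most of them carry lipids, drugs, conjugates, haem precursors or peptides across a membrane. CFTR is the member that works as a chloride channel, ABCC8 and ABCC9 regulate potassium channels, and the E and F subfamilies have no membrane part and act on ribosomes. In hepatocytes, ABCC2 and ABCG2 lie in the canalicular membrane facing bile and export conjugates and drugs, while ABCC3 and ABCC4 lie in the membrane facing blood. ABCB1, also called P-glycoprotein or MDR1, ABCG2, also called BCRP, and several ABCC proteins (the MRPs) are the classical efflux pumps of drug resistance in tumour cells.

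The libraries held between 28526098 and 40279560 reads assigned to genes, as recovered from the deposited values, and the shallowest was control 1. Of 10 liver epithelial markers, 8 were at or above 1 FPKM, and the sum of all 10 was 988 and 994 FPKM in the controls and 818 and 817 FPKM in drug libraries. Its markers moved in both directions, with FGB at 556 and 549 FPKM in the controls and 295 and 274 FPKM with drug, and KRT18 at 157.5 and 164 FPKM against 221 and 233 FPKM. The 2 below were AFP and TTR, so the liver label rests on the other 8. Among these 8, ALB was at only 3.15 and 3.23 FPKM in the controls and 1.31 and 1.32 FPKM with drug. The 6 fibroblast markers in the table, led by PDGFRB and LUM, summed to 0.640 and 0.621 FPKM in the controls and 1.07 and 1.015 FPKM with drug, and each was below 1 FPKM. The 3 erythroid markers summed to at most 0.879 FPKM. Of the 3 leukocyte markers in the table, LYZ alone passed 1 FPKM, and CD14 reached at most 0.170 FPKM. LYZ moved with the groups, from 180.5 and 183 FPKM in control to 283 and 287 FPKM with drug. The sum of the 3 endothelial markers, nearly all PECAM1, was 4.69 and 4.16 FPKM in the controls and 2.11 and 2.23 FPKM with drug. The part of these markers in the results on ABC genes was not tested.

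Of the 42 members, 22 averaged 1 FPKM or more in the control or the drug libraries and were tested. All 22 reached it in both groups. With limma on log2(FPKM + 1) and Benjamini-Hochberg adjustment over 11227 genes, 5 of the 22 changed at the threshold of 0.05. ABCG2 and ABCC10 rose, and ABCC4, ABCB1 and ABCA7 fell. In bulk RNA, fewer cells with a transcript and less of it per cell cannot be told apart. The called share was 22.7% of tested members, beside 13.8% of all tested genes. Among all tested genes 7.78% were called higher and 6.02% lower, or 873 and 676 genes. With TMM-scaled FPKM this split was 549 higher and 724 lower, while the members' split remained 2 and 3.

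Sequence motifs were searched in RefSeq promoter windows, which run from 250 bases before a transcription start into the gene. They were GCGTG (the core bound by the aryl hydrocarbon receptor), TGACNNNGC (the core of the NRF2 element), ACGTG (the core of the hypoxia element) and CACGTG (an E-box, which contains ACGTG). For each of the 5 changed members, the longest stretch upstream of a start that holds no GENCODE 29 exon is printed. It shows the sequence in front of a start of each gene that moved. For ABCG2, which has several starts, a shorter stretch in front of another start is added because it holds motif matches. The stretch of ABCC10, before the start at 43427541, and the second of ABCG2 lie inside the genes as GENCODE 29 places them. Coordinates are those of GRCh38.p14, every sequence reads 5′ to 3′ on the gene's strand, and capitals mark a match to a motif on either strand.
ABCG2, distal start, chr4:88231627-88231876, minus strand: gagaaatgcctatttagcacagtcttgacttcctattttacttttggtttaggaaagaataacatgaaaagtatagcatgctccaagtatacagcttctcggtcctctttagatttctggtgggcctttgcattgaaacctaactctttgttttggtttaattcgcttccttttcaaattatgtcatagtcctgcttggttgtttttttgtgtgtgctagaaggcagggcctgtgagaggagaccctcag
ABCG2, second stretch, chr4:88159025-88159159, minus strand: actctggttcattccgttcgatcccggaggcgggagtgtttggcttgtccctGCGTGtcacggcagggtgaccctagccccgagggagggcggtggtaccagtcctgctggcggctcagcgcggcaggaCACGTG
ABCC10, chr6:43427390-43427540, plus strand: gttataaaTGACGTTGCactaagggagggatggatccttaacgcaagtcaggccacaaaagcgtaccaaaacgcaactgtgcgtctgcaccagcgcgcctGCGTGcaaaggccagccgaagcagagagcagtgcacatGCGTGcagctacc
ABCC4, chr13:95301476-95301701, minus strand: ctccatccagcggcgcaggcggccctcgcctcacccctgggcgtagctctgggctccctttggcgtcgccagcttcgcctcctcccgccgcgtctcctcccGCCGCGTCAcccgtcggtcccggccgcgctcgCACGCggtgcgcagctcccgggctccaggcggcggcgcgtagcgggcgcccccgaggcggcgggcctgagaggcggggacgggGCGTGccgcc
ABCB1, chr7:87713324-87713545, minus strand: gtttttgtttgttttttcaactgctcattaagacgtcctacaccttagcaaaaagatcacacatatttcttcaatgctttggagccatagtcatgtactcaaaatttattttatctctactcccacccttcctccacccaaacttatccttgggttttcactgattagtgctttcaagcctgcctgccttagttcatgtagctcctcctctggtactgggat
ABCA7, chr19:1039857-1040100, plus strand: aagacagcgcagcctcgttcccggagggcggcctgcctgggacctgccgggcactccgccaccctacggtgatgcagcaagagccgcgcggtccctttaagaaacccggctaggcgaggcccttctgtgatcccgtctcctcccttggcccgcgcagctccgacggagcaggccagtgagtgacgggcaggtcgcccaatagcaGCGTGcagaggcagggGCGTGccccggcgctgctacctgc

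Of these stretches, the second of ABCG2 held 1 GCGTG and the only E-box, those of ABCC10 and ABCC4 each held 2 GCGTG and 1 TGACNNNGC, and that of ABCA7 held 2 GCGTG. No motif was matched in the printed stretch of ABCB1 or in that at the distal start of ABCG2. ABCB1 has another start at position 87600884. Its stretch of 56 bases, not printed, held no motif, but its whole window held 1 GCGTG. Whole windows of other called members also held further matches. That of ABCC10 at the start at 43427541 held 3 GCGTG, 2 ACGTG and 1 CACGTG, and so has an E-box too. That of ABCC4 held 3 GCGTG. For ABCG2, the window of the start at 88158909 held 2 GCGTG, and that of the start at 88159290 held 1 TGACNNNGC. The second ABCG2 stretch ends 115 bases before the start at position 88158909, since the bases between are annotated as exon. Among the tested members, 19 had a promoter in RefSeq, with 27 windows in all. GCGTG was in 17 of the 27 windows, or 63.0%, and in 36.5% of all 35116 windows. TGACNNNGC was in 25.9% of the members' windows and 13.3% of all windows. ACGTG was in 14.8% of the members' windows and in 21.4% of all windows. CACGTG was also in 14.8% of the members' windows, and in 7.26% of all. These shares count whole windows, not the printed stretches. The comparison, by window or by gene, was with all promoters rather than those of tested genes, and base content was not matched. The printed stretches held from 40.0% to 80.1% G and C bases. Whether a motif is enriched in ABC genes was not tested. Windows of the same gene can overlap, as those at the ABCG2 starts 88158859 and 88158909 did. Counted by gene, GCGTG was in 14 of the 19 members and in 40.6% of genes searched. TGACNNNGC was in 7 members (16.1% of genes), ACGTG in 3 (24.9%) and CACGTG in 3 (8.77%). Both genes that rose and genes that fell carried GCGTG. A match is a run of letters, and binding was not measured.

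Levels of the members spanned a wide range. Over all 4 libraries the tested members averaged from 1.35 FPKM for ABCC6 to 96.4 FPKM for ABCC2, a 71.3-fold span. ABCC2, the canalicular pump for bilirubin glucuronides and other conjugates, made up 26.3% of the summed FPKM of all members. ABCD3, a peroxisomal transporter that imports fatty acids and bile acid intermediates, made up 24.9%. With ABCE1 and ABCB10, the top 4 held 69.8% of the sum, and the 20 untested members together held 0.557%. The summed level of the family was 361 and 362 FPKM in the controls and 370.1 and 370.5 FPKM in drug libraries. These sums are not TMM-scaled, and the median log2 change over all tested genes was also positive, at 0.036. Between the high members and the rest, ABCC4 averaged 17.6 FPKM, ABCF3 17.0 FPKM and ABCG2 13.1 FPKM.

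**Figure D1:**
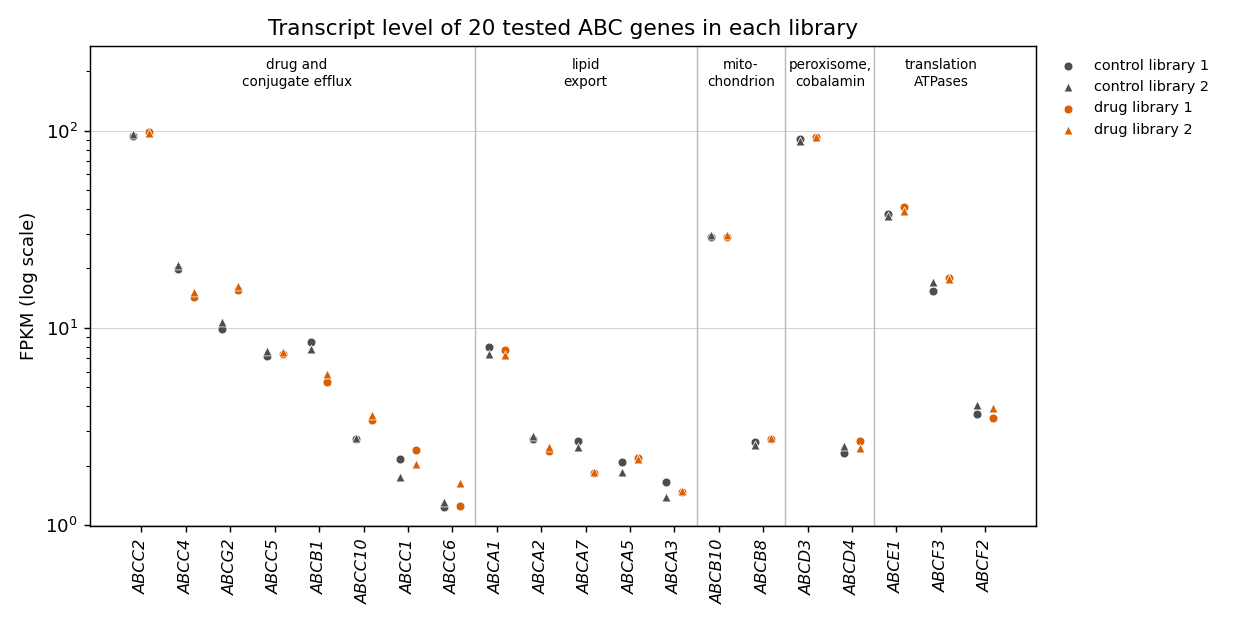
Level of 20 of the 22 tested ABC members in each of the 4 libraries, in FPKM on a log axis, with members grouped by role. ABCC2 and ABCD3 stand highest, and the points of a member lie close together beside the differences between members.

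ABCG2 exports drugs, urate and porphyrins as a dimer. Its level was 9.90 and 10.7 FPKM in control libraries and 15.5 and 16.3 FPKM in drug libraries. Both drug libraries lay well above both controls, and the means were 10.3 ± 0.594 (SD, n = 2) and 15.9 ± 0.595 (SD, n = 2) FPKM, a 1.54-fold rise. The change on the log2(FPKM + 1) scale was 0.58 ± 0.05 (SE), with a 95% interval of 0.45 to 0.71 and an adjusted p of 0.00588 (limma). It rested on 1582 and 2323 reads in the controls and 3497 and 3541 reads in drug libraries. The gene lies on the minus strand of chromosome 4 from 88090264 to 88231322 (GRCh38). Its call held under all 12 alternative settings, with adjusted p of at most 0.0389.

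ABCC10, or MRP7, is a pump of the MRP branch that carries lipophilic anions and anticancer drugs. It stood at 2.73 and 2.75 FPKM in the controls and at 3.39 and 3.61 FPKM with drug. The groups did not overlap, and the means of 2.74 ± 0.0195 and 3.50 ± 0.151 FPKM (SD, n = 2 each) differed 1.28-fold. The log2 change was 0.27 ± 0.06 (SE; 95% interval 0.12 to 0.41), with an adjusted p of 0.0417 (limma). The call was lost without any 1 of the libraries (adjusted p 0.151 and 0.131 without control 1 and 2, 0.0994 and 0.165 without drug 1 and 2). ABCC10 lies on the plus strand of chromosome 6 from 43427366 to 43450430, and 79 of its exon bases are shared with DLK2 on the other strand. Whether reads were counted by strand is not given in the sources used here.

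ABCC4, or MRP4, exports cyclic nucleotides, prostaglandins and bile salts. Its level was 19.8 and 20.9 FPKM in control libraries and 14.4 and 15.2 FPKM in drug libraries. Each drug library was below both controls, and the means fell 1.37-fold, from 20.3 ± 0.789 to 14.8 ± 0.588 FPKM (SD, n = 2 each). The log2 change was -0.43 ± 0.04 (SE; 95% interval -0.55 to -0.32), with an adjusted p of 0.00804 (limma) on 4865, 6957, 4997 and 5077 reads. Without control 2 the adjusted p was 0.0509. The gene lies on the minus strand of chromosome 13 from 95019829 to 95301475.

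ABCB1 pumps a wide range of hydrophobic drugs out of cells. It measured 8.44 and 7.83 FPKM in the controls and 5.33 and 5.82 FPKM with drug. The groups were again apart, and the means of 8.14 ± 0.436 and 5.58 ± 0.340 FPKM (SD, n = 2 each) made the drug level 1.46-fold lower. The log2 change was -0.47 ± 0.06 (SE; 95% interval -0.63 to -0.32), with an adjusted p of 0.0122 (limma) on 1547, 1941, 1380 and 1445 reads. The adjusted p was 0.0690 without control 1, 0.0530 without control 2 and 0.0510 without drug 1. ABCB1 lies on the minus strand of chromosome 7 from 87503633 to 87713323. The FPKM of ABCG2 divided by that of ABCB1 was 1.17 and 1.37 in the controls and 2.91 and 2.81 in drug libraries, a ratio chosen after the values were seen.

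ABCA7, a lipid exporter related to ABCA1, was the only called member outside the drug and conjugate efflux group. It was at 2.66 and 2.48 FPKM in the controls and at 1.83 and 1.85 FPKM in drug libraries. The drug libraries were close together and below both controls, and the mean fell 1.39-fold, from 2.57 ± 0.126 to 1.84 ± 0.0189 FPKM (SD, n = 2 each). The log2 change was -0.33 ± 0.07 (SE; 95% interval -0.50 to -0.16), with an adjusted p of 0.0373 (limma) on 727, 918, 706 and 688 reads. The call was lost without any 1 of the libraries (adjusted p 0.150 and 0.0992 without control 1 and 2, 0.12 and 0.126 without drug 1 and 2). With edgeR on the recovered reads its log2 change was -0.52. ABCA7 lies on the plus strand of chromosome 19 from 1040101 to 1065572.

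**Figure D2:**
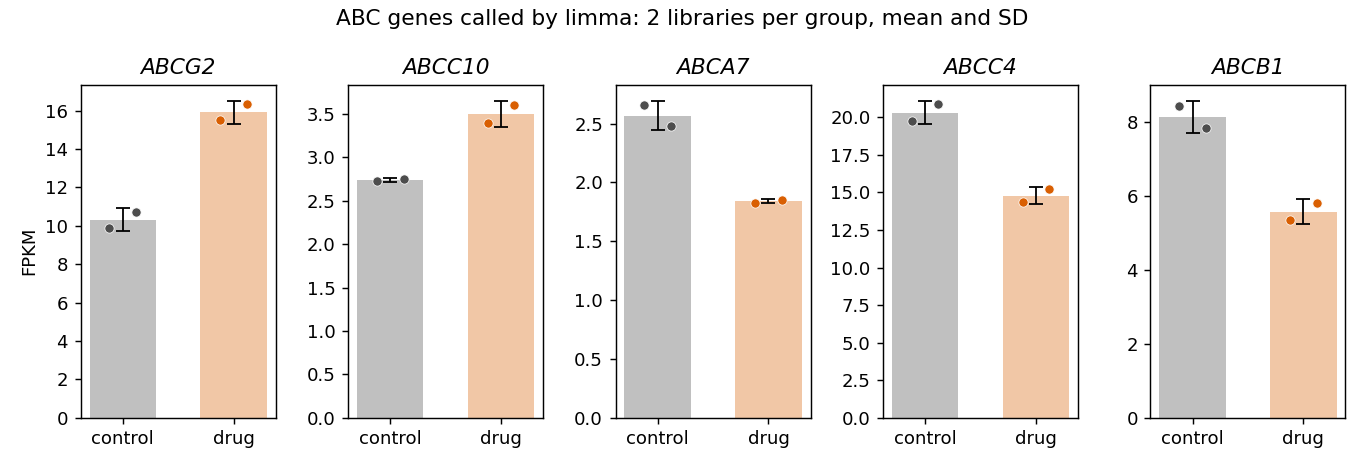
FPKM of the 5 called members in each library, with points for libraries a bar for each group mean and an error bar for the SD (2 libraries a group). The drug points lie above both control points for ABCG2 and ABCC10 and below them for ABCC4, ABCB1 and ABCA7.

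The 17 other tested members had log2 changes between -0.14 and 0.14, and adjusted p from 0.122 to 0.967 (limma). Over the 22 tested members 15 estimates were positive and 7 negative (ABCB10 and ABCC5 turned negative with TMM scaling, edgeR and DESeq2, and ABCC2 with edgeR and DESeq2), with a median of 0.05, beside 0.04 over all tested genes. The median size of change without its sign was 0.09 for members and 0.10 for all tested genes. Drug libraries lay above both controls in 9 members, or 40.9%, and below both in 4, or 18.2%. The same was true of 40.3% and 23.3% of all tested genes. The authors' deposited table, over 26603 genes, had 5 members with an adjusted p under 0.05, beside 7.21% of its genes. Its members past 0.05 were ABCG2 and ABCC10 with positive and ABCC4, ABCB1 and ABCA7 with negative log2 fold changes. In the authors' deposited table the log2 fold change was 0.59 for ABCG2, 0.32 for ABCC10, -0.49 for ABCC4, -0.58 for ABCB1 and -0.51 for ABCA7. DESeq2 fitted to the recovered reads of all 26603 genes, with no filter, gave log2 fold changes that differed from the deposited ones by a median of 2.7e-05.

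**Figure D3:**
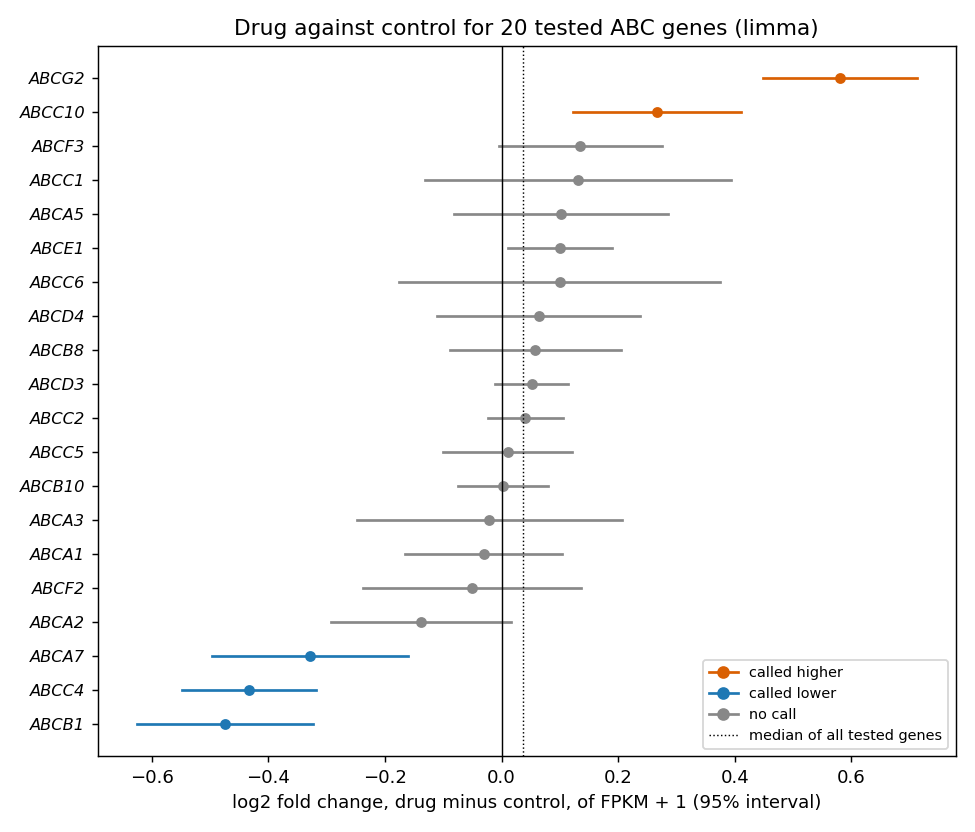
Change of 20 of the 22 tested members on the log2(FPKM + 1) scale, drug minus control, with its 95% interval from limma and a dotted line at the median of all tested genes. The intervals of the 5 called members lie away from 0, and among the others shown only that of ABCE1 does not cross it.

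Of 11 drug and conjugate efflux members, 8 were tested, and 2 rose, 2 fell and 4 were not called. Among all tested genes 13.8% were called, and no test set this group against that share. The most abundant of the efflux members, ABCC2, was at 94.1 and 95.9 FPKM in the controls and 98.3 and 97.2 FPKM with drug. Its drug libraries were both slightly above the controls, and its log2 change was 0.04 with a 95% interval of -0.02 to 0.10 (adjusted p 0.322, limma). ABCC1, or MRP1, the glutathione-conjugate pump of many drug-resistant lines, measured 2.15 and 1.75 FPKM in the controls and 2.41 and 2.04 FPKM with drug. Its groups overlapped, and its interval of -0.13 to 0.39 was wide (adjusted p 0.422, limma). ABCC5, an exporter of cyclic nucleotides, lay between 7.21 and 7.61 FPKM and was not called. ABCC6, whose loss causes ectopic calcification, measured 1.23 and 1.31 FPKM in the controls and 1.24 and 1.63 FPKM with drug. Its reads can be shared with the near-identical pseudogene ABCC6P1, which was listed at 2.43 and 2.40 FPKM in the controls and 3.02 and 3.07 FPKM with drug, so its level is uncertain. ABCC3, the basolateral MRP3, was below the threshold for testing at 0.405 and 0.428 FPKM in the controls and 0.377 and 0.398 FPKM with drug.

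Of 12 members listed under lipid export, a label that need not fit each gene, 5 were tested. Of these, 1 was called (ABCA7), beside 13.8% of all tested genes. ABCA1, which loads cholesterol and phospholipid onto apolipoprotein A-I, measured 7.97 and 7.38 FPKM in the controls and 7.70 and 7.28 FPKM with drug. Its groups overlapped, and its log2 change was -0.03 with a 95% interval of -0.17 to 0.10 (adjusted p 0.724, limma). ABCA2, an endolysosomal lipid transporter, was at 2.73 and 2.81 FPKM in the controls and at 2.36 and 2.49 FPKM with drug. Its groups did not overlap, but its adjusted p was 0.183 with limma. With edgeR on recovered reads, which called 19.4% of genes, its adjusted p was 0.0278, and with DESeq2, which called 16.6%, it was 0.0559. ABCA5 and ABCA3 stood between 1.38 and 2.19 FPKM in every library and were not called.

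None of the 3 tested mitochondrial transporters was called, whether by limma (0 at an unadjusted p under 0.05), edgeR or DESeq2. ABCB10, an inner-membrane protein needed for haem synthesis in erythroid cells, was at 28.96 and 29.4 FPKM in the controls and 28.8 and 29.6 FPKM with drug. Its log2 change of 0.00 had a 95% interval of -0.07 to 0.08 (adjusted p 0.967, limma). ABCB8, also mitochondrial, lay between 2.55 and 2.77 FPKM.

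None of the 3 tested peroxisomal and cobalamin members was called by limma (0 at an unadjusted p under 0.05), by edgeR or by DESeq2. ABCD3 measured 90.2 and 88.8 FPKM in the controls and 93.1 and 92.4 FPKM with drug, with a log2 change of 0.05 and a 95% interval of -0.01 to 0.11 (adjusted p 0.216, limma). ABCD4, which takes part in the release of cobalamin from lysosomes, ranged from 2.33 to 2.68 FPKM. It shares 624 exon bases with another annotated gene on its own strand, so its counts are less certain. ABCD2, a peroxisomal fatty acid transporter, had 6 and 2 reads in the controls and 2 and 2 reads in drug libraries.

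Of the translation ATPases, ABCE1, which splits ribosomes after termination, was the third most abundant member. It was the only 1 of the 3 tested with an unadjusted p under 0.05 (limma), and no member of the group was called by limma, edgeR or DESeq2. ABCE1 measured 37.9 and 36.9 FPKM in the controls and 41.1 and 39.2 FPKM with drug. Both drug libraries were above the controls and the interval of the log2 change, 0.01 to 0.19, lay above 0, but the adjusted p was 0.122 (limma), the lowest among members that were not called. ABCF3 was at 15.3 and 17.1 FPKM in the controls and 18.0 and 17.8 FPKM with drug, a log2 change of 0.14 whose 95% interval ran from -0.0044 to 0.27 (adjusted p 0.160, limma). ABCF2 lay between 3.48 and 4.06 FPKM with overlapping groups. Exons of ABCE1 overlap other genes on the opposite strand, and 1914 exon bases of ABCF2 are shared with another annotated gene on its own strand, so their counts are less certain.

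ABCF1, a ribosome-binding factor of translation initiation, was listed with 0 and 3 reads in the controls and 0 and 4 in drug libraries. It lies on chromosome 6 from 30571376 to 30597179, in the region of the major histocompatibility complex. Within 500000 bases on each side, 15 of 30 protein-coding genes were in the table, and 12 of these 15 had under 50 reads in every library. TAP2, a subunit of the antigen peptide transporter whose gene lies in the same complex and whose symbol the rule does not match, had 5, 6, 6 and 0 reads. The level of ABCF1 in this table is therefore uncertain. ABCB6, a porphyrin transporter, had 0 and 3 reads in the controls and 10 and 6 with drug, and it shares 2864 exon bases with an overlapping gene on its own strand that had 2, 3, 3 and 5 reads.

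Of the 20 members below 1 FPKM, 10 had at most 10 reads in every library and 7 had no read in at least 1 library. The highest was ABCB9, a lysosomal peptide transporter, at 0.514 to 0.646 FPKM. It shares 2752, 1656 and 1590 exon bases with AC026362.1, OGFOD2 and ARL6IP4 on the other strand, so its level is less certain. The exporters of bile lipids in the table were nearly undetected. ABCB4, which moves phosphatidylcholine into bile, had 4 and 14 reads in the controls and 10 and 10 with drug. ABCG5 had 0, 9, 4 and 8 reads, and its partner ABCG8, with which it exports sterols, had 2, 0, 0 and 2. A library with no read allows up to 3 reads by counting error, which for ABCG5 in control 1 is 0.0283 FPKM. CFTR had 38 and 58 reads in the controls and 36 and 25 with drug, or 0.0792, 0.0893, 0.0531 and 0.0384 FPKM. Its drug libraries were below both controls, and the authors' deposited table gave a log2 fold change of -0.91 with an adjusted p of 0.314. ABCC8 had 6 to 8 reads, and ABCC9 had 2 reads in all libraries together. Among members listed under lipid export, ABCA4 had 63 to 106 reads, ABCA8 had 53 to 78 and ABCG4 had 47 to 62. ABCA6, ABCA10, ABCA12 and ABCA13 had at most 21. ABCC11 had 29 to 51 reads, and ABCC13, annotated as a pseudogene, had 2 in control 1 and 0 elsewhere.

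**Figure D4:**
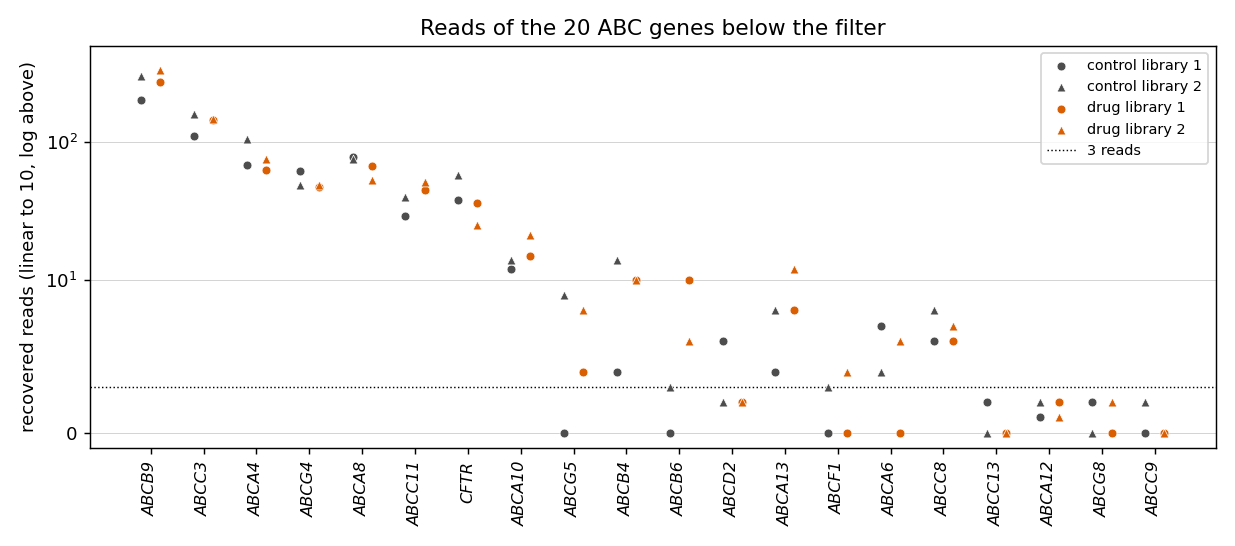
Recovered reads of the 20 untested members in each library, on an axis that is linear near 0 and logarithmic above, in order of mean FPKM. Only 7 of the 20 had over 20 reads in every library, and control and drug points are mixed in most members.

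Calls of members other than ABCG2 differed between settings. ABCG2 passed 0.05 under every setting run. With no filter on low values, ABCC4 kept its call (adjusted p 0.0465, limma) and ABCB1 did not (0.0634). By edgeR, fitted to the recovered reads, adjusted p-values were 4.39e-05 for ABCG2, 0.00012 for ABCC4, 0.000257 for ABCB1, 0.00188 for ABCA7 and 0.0133 for ABCC10.

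**Figure D5:**
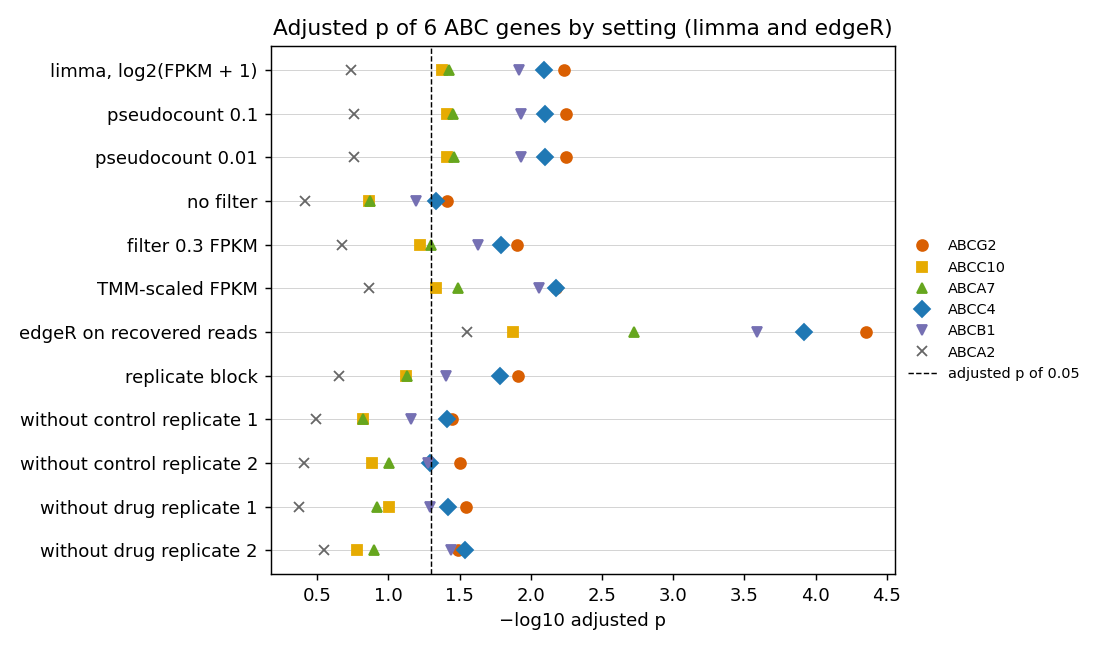
Adjusted p of the 5 called members and ABCA2, as -log10, under the limma and edgeR settings, with a line at the threshold of 0.05. ABCG2 (hidden behind ABCC4 for TMM-scaled FPKM) lies past the line in every setting shown, while ABCC10 and ABCA7 fall short when any 1 library is left out.

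Genes that work with ABC proteins were taken from 9 lists, which held 108 genes, 105 of them in the table and 80 tested. Of the 80, 7 rose and 8 fell, or 18.8%, beside 13.8% of all tested genes. With edgeR 18 fell and with DESeq2 15. No gene was called by limma among 5 tested partners of the antigen peptide transporter, 9 of peroxisome import and oxidation and 7 of cobalamin handling. At an unadjusted p under 0.05 these lists held 1, 2 and 3 genes (limma), and edgeR called 1, 1 and 3 and DESeq2 1, 0 and 2. ISCU, the scaffold of iron-sulphur cluster assembly, was the 1 call among 15 genes of haem and iron-sulphur synthesis (log2 change 0.23, adjusted p 0.0390, limma). GSPT1, the release factor eRF3, was the 1 call among 11 partners of ribosome recycling and initiation (0.17, adjusted p 0.0224, limma). Both calls were lost without any 1 library (limma adjusted p 0.0835 to 0.151 for ISCU and 0.0731 to 0.110 for GSPT1), and that of ISCU also with TMM-scaled FPKM (0.0526).

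Regulators of ABC gene transcription moved in both directions, with 2 of 13 tested genes higher and 3 lower. The called share was 38.5%, beside 13.8% of all tested genes. NR1H4, the bile acid receptor FXR, was at 2.86 and 2.53 FPKM in the controls and 1.12 and 1.05 FPKM with drug, and it fell by 0.82 on the log2(FPKM + 1) scale (adjusted p 0.00734, limma). Its log2 change was -1.23 with a pseudocount of 0.1 and -1.35 with edgeR. Its bile exporter targets ABCB4 and ABCB11 were nearly undetected and not analysed here, respectively. SREBF2, which drives sterol synthesis, fell by 0.23 and PPARA, the fatty acid sensor, by 0.24 (limma adjusted p 0.0146 and 0.0482). HNF4A, a hepatocyte regulator, rose by 0.18 and NR5A2, a receptor of bile acid synthesis genes, by 0.24 (limma adjusted p 0.0210 and 0.0215). AHR and NFE2L2, known activators of ABCG2 and of several ABCC genes, had log2 changes of 0.04 and 0.02 (limma adjusted p 0.550 and 0.694). These are transcript levels, and the activity of AHR and NFE2L2 was not measured. Without control 1 the adjusted p of NR1H4 was 0.0501 (limma). The calls of SREBF2 (0.0680 to 0.0765), PPARA (0.12 to 0.188), HNF4A (0.0848 to 0.104) and NR5A2 (0.0706 to 0.102) were lost without any 1 library (limma adjusted p).

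Among 4 tested genes of hepatocyte uptake and basolateral exchange, SLC51B, the beta subunit of the bile acid exchanger, fell and ATP8B1, a canalicular lipid flippase, rose. SLC51B was at 65.7 and 69.6 FPKM in the controls and 49.3 and 48.0 FPKM with drug (log2 change -0.47, adjusted p 0.00457, limma), and its call held under all 12 alternatives. ATP8B1 was at 11.2 and 11.0 FPKM in the controls and 14.2 and 14.4 FPKM with drug (0.34, adjusted p 0.00749, limma, and 0.0510 without control 2). Of 10 tested genes of sterol acceptance and transport, 1 rose and 3 fell, or 40.0%, beside 13.8% of all tested genes. STARD4, a carrier of cholesterol inside cells, went from 8.19 and 7.96 FPKM to 5.89 and 5.78 FPKM (log2 change -0.41, adjusted p 0.00719, limma, and 0.0542 without control 1). APOA1, the acceptor of lipid from ABCA1, had a log2 change of -0.21 and SCARB1, the HDL receptor, one of -0.16 (limma adjusted p 0.0397 and 0.0434). APOA2, the other main protein of HDL, rose by 0.28 (adjusted p 0.0246, limma). APOA1 (0.0631 to 0.152) and SCARB1 (0.0962 to 0.160) lost their calls without any 1 library, and APOA2 without control 1 (0.0995), control 2 (0.0645) or drug 1 (0.0816). APOA2 was also not called with TMM-scaled FPKM (limma adjusted p 0.0564), nor APOA1 with DESeq2 (0.105).

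Of 6 tested channel partners and CFTR scaffolds, NHERF1 fell and AHSA1 rose, or 33.3%, beside 13.8% of all tested genes. NHERF1, a scaffold that binds CFTR and ABCC2 at the apical membrane, was at 87.3 and 87.8 FPKM in the controls and 73.0 and 74.3 FPKM with drug (log2 change -0.25, adjusted p 0.00788, limma). Without control 1 or control 2 its adjusted p was 0.0510 or 0.0519. AHSA1, a co-chaperone of HSP90, was at 51.0 and 53.9 FPKM in the controls and 63.0 and 63.1 FPKM with drug (0.26, adjusted p 0.0142, limma). Its adjusted p was 0.0546 without control 1, 0.0676 without drug 1 and 0.0705 without drug 2. PDZK1, which binds ABCC2 and other transporters, had a log2 change of 0.00 (adjusted p 0.992, limma).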

How the data were processed

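Messenger RNA libraries were made by a stranded Illumina protocol, per the labels' protocols. Reads were demultiplexed with bcl2fastq with hg38 as build, per the submitters' processing notes. The sources used here name no aligner, counter or annotation. The deposited table holds FPKM per library, a unit read from the values because the header names none. It also holds group means of normalized reads (a signal that the authors scaled by size factors), and the authors' log2 fold changes, p-values and adjusted p-values, per the file headers. No per-sample column was left unused (0).

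FPKM and group means together gave back the whole reads of each library (100% of values lay within 0.1 of an integer). A gene entered the test when its control or drug mean reached 1 FPKM. The test was limma 3.58.1, with a trend, on log2(FPKM + 1), which understates changes of low genes, and adjusted p-values (Benjamini-Hochberg) were called under 0.05. Alternatives used pseudocounts of 0.1 or 0.01, a filter at 0.3 FPKM or none, TMM-scaled FPKM, recovered reads with edgeR 4.0.16 or DESeq2 1.42.0, a block on the replicate number, and 3 of the 4 libraries. Read recovery and the limma fit were tested on simulated data. With 50 genes changed at each size among 11012, limma called 4% of 1.25-fold and 46% of 1.5-fold changes. It called 84% of 2-fold and 92% of 4-fold changes, and 8 unchanged genes. A missing call therefore does not show that a member was unchanged. Intervals and read limits cover counting error or the spread between libraries only. Positions and exon overlaps came from GENCODE 29 (GRCh38), where 25091 table genes were found. The gene models behind the deposited values can differ from these. The length implied by FPKM was 5603 bases for ABCG2, 6422 for ABCB1 and 9591 for ABCA7. Their GENCODE 29 exon lengths were 5044, 5806 and 8367 bases. The 2 lengths were close for ABCC4 (8629 and 8635) and ABCC10 (8088 and 8083). The distal ABCG2 start, at 88231626, lies beyond the GENCODE 29 gene end at 88231322. Promoters from RefSeq (GRCh38.p14) matched 33 of 42 members. The planned search of protein sequences was not run.

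Members follow a symbol rule. Members, gene lists and the naming rule were chosen with earlier results of these data known. Values per library are given for members that passed limma, the 8 highest members and fixed efflux, bile and sterol genes, and up to 4 called genes per list and direction were named. Other members with values were added to account for all 42, except that 2 tested members are not reported here by name and enter only the counts.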

Additional observations from a re-analysis of the deposited data

How the results depend on the processing

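Over the 12 alternatives ABCG2 kept its call and direction in all. ABCC4 lost its call in 1, ABCB1 in 4, and ABCA7 and ABCC10 in 7 each, always with the same direction. Called genes numbered 170 higher and 214 lower with no filter, 549 higher with TMM scaling, 1233 lower with edgeR and 1105 lower with DESeq2, and without 1 library 115 to 221 higher and 188 to 274 lower. Members called higher were 1 with no filter, 1 with a filter at 0.3 FPKM and 1 to 1 without 1 library, and members called lower were 1 with no filter and 0 to 2 without 1 library. Partner genes called higher were 1 with no filter and 1 to 2 without 1 library. Those called lower were 5 with no filter, 5 at 0.3 FPKM, 18 with edgeR, 15 with DESeq2 and 1 to 4 without 1 library. Of the 15 called partner genes, 9 lost their call with no filter, 4 at 0.3 FPKM, 2 with TMM scaling, 1 with DESeq2, 5 with the replicate block, 0 with edgeR or another pseudocount, and 9 to 13 without 1 library. With no filter 26603 genes were tested and at 0.3 FPKM 15172. The cause of the other shifts was not tested.

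The median log2 change of tested members was 0.018 with TMM scaling, 0.0074 with edgeR, 0.0074 with DESeq2 and 0.027 to 0.059 without 1 library. Some uncalled members changed sign. ABCB10 went to -0.026 with TMM scaling, -0.039 with edgeR, -0.039 with DESeq2 and -0.017 to 0.022 without 1 library. ABCC5 went to -0.015 with TMM scaling, -0.031 with edgeR, -0.031 with DESeq2 and -0.024 to 0.044 without 1 library. ABCC2 was -5.7e-05 with edgeR and -0.00030 with DESeq2. Without 1 library, ABCA1 ran from -0.080 to 0.018, ABCA3 from -0.097 to 0.055, ABCC6 from -0.015 to 0.21 and ABCF2 from -0.12 to 0.015.

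Libraries of a group share only a number with those of the other group. The difference of control 1 from control 2 correlated with that of drug 1 from drug 2 at 0.028 over tested genes, which are not independent. With the replicate number as a block, 474 genes were called higher and 451 lower, members called higher were 1, partner genes called lower were 5, and ABCA7 (adjusted p 0.0743) and ABCC10 (0.0747) were no longer called (limma).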

Other observations

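ABC pseudogenes that the symbol rule does not match were also in the table. ABCC6P1 was listed at a higher level than ABCC6 in every library, and its drug libraries were above both controls (log2 change 0.24, adjusted p 0.0503, limma). It held 239 and 320 reads in the controls and 419 and 410 reads in drug libraries. ABCA11P measured 0.214 and 0.251 FPKM in the controls and 0.267 and 0.315 FPKM with drug. ABCA17P had 7 to 14 reads. The antisense RNA ABCA9-AS1, which is no pseudogene, had 2, 1, 0 and 0 reads.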
